A study of Mus musculus with 9 samples.

Results

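Messenger RNA of the folding machinery of the endoplasmic reticulum (ER) was followed with age in mouse skeletal stem cells (mSSC), the progenitors of cartilage and bone, sorted from a healing femoral fracture. The set held 10 genes of the 53607 rows of the deposited expression table, taken by symbol. They were the lumenal chaperones Hspa5 and Hsp90b1, the lectin chaperones Calr and Canx, the disulfide isomerases Pdia3, Pdia4 and Pdia6, and the transcription factors Xbp1, Creb3l1 and Creb3l2. Bulk RNA-seq had been run on 9 libraries, 3 each from C57BL/6J mice of 2 months, called adult, of 12 months, called middle-aged, and of 24 months, called aged. In every group the cells came from the femoral callus on day 10 after injury, with no further treatment given in the labels, and had the surface phenotype CD45-TER119-TIE2-ITGAV+THY1-6C3-CD105-. Pools of 500 to 1000 sorted cells went into each sample. Separate animals are not named in the labels, so each p-value measures no more than the spread among these samples, part of which may be technical.

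Secreted and membrane proteins enter the ER unfolded. Hsp70-type and Hsp90-type chaperones hold them there, calreticulin and calnexin retain those that carry N-glycans, and protein disulfide isomerases make and exchange their disulfide bonds. When unfolded protein builds up, sensors in the ER membrane switch on transcription factors that raise the genes of this machinery, a programme called the unfolded protein response. Chondrocytes and osteoblasts secrete large amounts of collagen and proteoglycan, and in mice the ER-bound factors encoded by Creb3l1 and Creb3l2 are known for their roles in bone and cartilage secretion.

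The promoters of several of these genes are known targets of that response through the ER stress response element (ERSE), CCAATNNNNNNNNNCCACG, where N is any base. RefSeq promoter windows on GRCm38.p6, from 250 bases before to 50 bases after the gene start, were matched by symbol for 9 of the 10 genes, all but Creb3l1. The full element, searched on both strands, was found in 5 of these 9 windows (55.6%), against 39 of 32851 windows of all genes (0.119%). An exact copy in the window was thus found for part of the set only. Near matches and sequence outside the windows were not searched, so absence of a working element is not shown. Several of these genes were already known targets through it, so the contrast with all windows is not independent of the choice of genes. The elements found are written 5′ to 3′ as the element reads, with its CCAAT and CCACG ends in capitals. The spacer between the ends differed in every copy.
Hspa5, chr2:34772025-34772043, gene strand: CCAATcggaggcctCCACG
Hsp90b1, chr10:86705638-86705656, gene strand: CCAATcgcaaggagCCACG
Hsp90b1, chr10:86705533-86705551, other strand: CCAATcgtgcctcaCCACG
Calr, chr8:84847075-84847093, other strand: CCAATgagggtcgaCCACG
Canx, chr11:50325800-50325818, gene strand: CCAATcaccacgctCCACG
Pdia6, chr12:17266491-17266509, gene strand: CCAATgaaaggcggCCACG

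Hsp90b1 was the only one of the 9 windows with a second full element. All 6 elements lay upstream of the RefSeq start, the nearest in Hspa5 at 65 to 47 bases and the farthest in Hsp90b1 at 212 to 194 bases. In Hspa5 the element lies inside the gene span of the GENCODE annotation, whose first transcript starts farther upstream. The windows of Pdia3, Pdia4, Xbp1 and Creb3l2 held no full element. The related ERSE-II motif, in which ATTGG and CCACG are 1 base apart, was in none of the 9 windows and in 0.0365% of all windows. The shorter CCAAT box, which is also the first part of the ERSE, was in 8 of 9 windows (88.9%), all but that of Xbp1, against 37.4% of all windows. CCACG alone was in 6 of 9 (66.7%), the ERSE genes and Pdia4, against 32.8%. A match of letters is a description of the window and not evidence of binding.

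**Figure D1:**
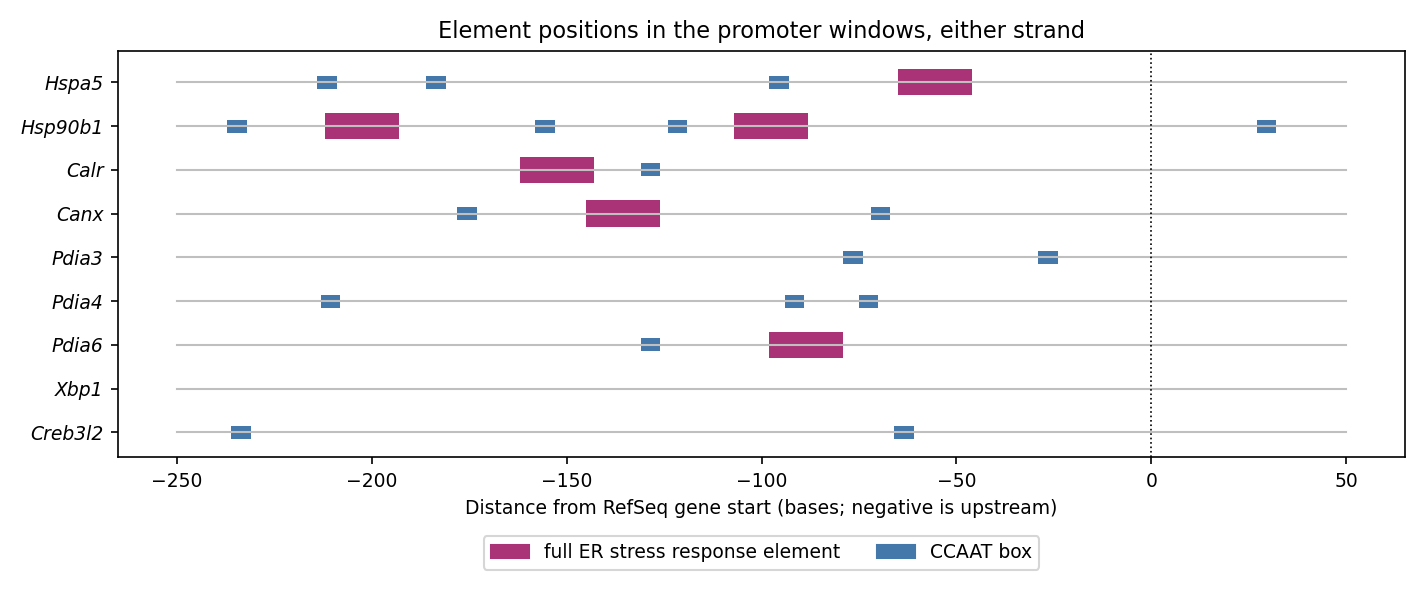
Positions of the full ERSE (magenta) and of CCAAT boxes outside it (blue) on either strand in the 9 RefSeq promoter windows, one gene per line, with distance from the gene start in bases on the horizontal axis and negative values upstream. Full elements appear in Hspa5, Hsp90b1, Calr, Canx and Pdia6, all upstream of the start, and Hsp90b1 has 2.

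As an example of each kind, the 250 bases before the start of Canx, which holds the full element, and of Creb3l2, which does not, are given on the gene strand (GRCm38.p6). The half-sites of the full element are in capitals, and the Creb3l2 stretch has none.
Canx, chr11:50325674-50325923, minus strand: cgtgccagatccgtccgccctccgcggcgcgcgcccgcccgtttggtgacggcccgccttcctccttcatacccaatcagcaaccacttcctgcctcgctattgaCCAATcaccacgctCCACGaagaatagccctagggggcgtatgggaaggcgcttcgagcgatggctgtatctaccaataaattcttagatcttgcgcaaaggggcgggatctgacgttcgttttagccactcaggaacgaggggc
Creb3l2, chr6:37442149-37442398, minus strand: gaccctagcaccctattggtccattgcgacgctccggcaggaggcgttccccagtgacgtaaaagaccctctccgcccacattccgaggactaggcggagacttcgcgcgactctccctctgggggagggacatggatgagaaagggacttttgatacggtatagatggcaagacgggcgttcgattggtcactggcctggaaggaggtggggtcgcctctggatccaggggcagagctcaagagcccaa

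The deposited values are log2(TPM + 1), with TPM a share of all transcripts corrected for transcript length (transcripts per 1000000). The labels give an average of about 45000000 mapped reads per sample. The depth of each library is unknown, since TPM does not hold it. All 10 genes passed the filter of 1 TPM in at least 3 libraries, as did 14501 genes in all. Library 1 of 24 months stood apart from the other 8, with a mean correlation of 0.932 to the others, against 0.953 to 0.962 for the rest, and with 33313 rows at 0, against 29284 to 31082. The labelled cell type was checked against marker genes. Cartilage collagen was abundant, with a mean of 39494 TPM of Col2a1 at 2 months, 22030 at 12 months and 18859 at 24 months. Itgav, the positive gate gene, lay between 25.2 and 50.1 TPM in all 9 libraries. Of the negative gate genes found in the table, Ptprc (CD45) and Tek (TIE2) reached at most 0.281 and 0.301 TPM, while Thy1, Enpep (6C3) and Eng (CD105) reached 4.27, 1.63 and 4.08 TPM. Transcripts of red cells and neutrophils were present, with Hbb-bs at 29.8 to 366 TPM and S100a8 at up to 96.2 TPM. The 10 markers of that list summed to 60.7 to 652 TPM, and the highest sum was that of library 1 of 24 months.

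The 10 genes were abundant in all libraries, with Hspa5 the highest in each. Hspa5 ranked 117th by mean TPM among the 14501 genes, Hsp90b1 304th, Pdia3 331st, Pdia6 351st and Calr 387th. Xbp1 ranked 598th, Pdia4 674th, Canx 1409th, Creb3l1 2446th and Creb3l2 3749th. Over the 9 libraries Hspa5 ranged between 952 and 1501 TPM, above every value of the other 9 genes. The ranges of Hsp90b1, Pdia3, Pdia6 and Calr overlapped each other, and so did those of Xbp1 and Pdia4. Canx, at 81.0 to 144 TPM, lay below all of these and above both Creb3l genes. Together the 10 genes summed to 3895, 4606 and 3769 TPM at 2 months, 3747, 3488 and 4242 TPM at 12 months, and 4046, 4385 and 4826 TPM at 24 months. The sums of the 3 ages overlapped, with means of 4090 ± 452, 3826 ± 383 and 4419 ± 391 TPM (SD, n = 3 each).

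No gene of the set passed the test between any pair of ages. Differences were tested with limma on all 9 libraries, and genes with a p under 0.05 after Benjamini-Hochberg adjustment over all 14501 genes were called. Called genes made up 0.159% of all genes for 24 against 2 months, 0.724% for 12 against 2 months and 0.455% for 24 against 12 months, so calls were rare over all genes. A moderated F test for any difference among the ages called 0 of the 10 and 0.759% of all genes. Its adjusted p (limma) ran between 0.155 for Creb3l2 and 0.694 for Hspa5. At an unadjusted p under 0.05 the F test held Calr, Creb3l1 and Creb3l2, or 3 of 10, against 18.1% of all genes. In bulk samples such as these, fewer cells of a type and less RNA per cell cannot be told apart.

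Hspa5 (chr2:34771970-34777547, plus strand, GRCm38) encodes BiP, the main Hsp70-type chaperone of the ER, which also keeps the stress sensors inactive. It stood at 1098, 1448 and 1250 TPM at 2 months, 1185, 952 and 1360 TPM at 12 months, and 1265, 1262 and 1501 TPM at 24 months. The values of the 3 ages overlapped. The log2 fold change was 0.09 for 24 against 2 months, with a 95% interval between -0.29 and 0.47 (limma, adjusted p = 0.839). For 12 against 2 months it was -0.12 and for 24 against 12 months 0.21, also uncalled (limma, adjusted p = 0.773 and 0.612). The interval of the first comparison spans a fold between 0.820 and 1.38.

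Hsp90b1 (chr10:86690209-86705509, minus strand) encodes GRP94, the Hsp90-type chaperone of the ER, whose clients include integrins and insulin-like growth factors. It was the only gene of the set whose mean at 12 months exceeded that at 2 months. It stood at 479, 607 and 429 TPM at 2 months, 678, 558 and 700 TPM at 12 months, and 524, 603 and 663 TPM at 24 months, and the ages overlapped. The log2 fold change for 12 against 2 months was 0.36 ± 0.17 (SE; limma, unadjusted p = 0.0524, adjusted p = 0.326). As a share of the Hspa5 level in the same library, Hsp90b1 was 43.6, 42.0 and 34.3% at 2 months, 57.3, 58.7 and 51.4% at 12 months, and 41.4, 47.8 and 44.2% at 24 months. The 12-month shares lay above all the others. This ratio was chosen after the values were seen and was not tested.

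Calr (chr8:84841850-84846934, minus strand) encodes calreticulin, the soluble lectin chaperone of the ER lumen, and Canx (chr11:50293961-50325673, minus strand) encodes its membrane-bound relative calnexin. Both had higher values at 24 than at 12 months without passing the test. Calr stood at 494, 510 and 381 TPM at 2 months, 374, 421 and 402 TPM at 12 months, and 488, 571 and 574 TPM at 24 months. All 24-month values of Calr lay above all 12-month values, while both ages overlapped with 2 months. Its log2 fold change for 24 against 12 months was 0.45 ± 0.15 (SE; limma, unadjusted p = 0.0118, adjusted p = 0.208). Canx stood at 104, 134 and 108 TPM at 2 months, 87.2, 81.0 and 108 TPM at 12 months, and 98.8, 127 and 144 TPM at 24 months, and the ages overlapped. Its log2 fold change for 24 against 12 months was 0.41 ± 0.18 (SE; limma, unadjusted p = 0.0420, adjusted p = 0.327). Neither lectin came near the threshold for 24 against 2 months (limma, adjusted p = 0.467 for Calr and 0.852 for Canx).

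Pdia3 (chr2:121413775-121438687, plus strand) encodes ERp57, the disulfide isomerase that works with calreticulin and calnexin. It had the smallest spread between libraries of an age within the set, a residual SD of 0.134 on the log2 scale, against a median of 0.336 over all genes. It stood at 517, 604 and 469 TPM at 2 months, 454, 481 and 528 TPM at 12 months, and 551, 618 and 606 TPM at 24 months. All 24-month values lay above all 12-month values, a log2 difference of 0.28 ± 0.14 (SE; limma, adjusted p = 0.396). Pdia6 (chr12:17266545-17284770, plus strand) encodes P5, an isomerase that associates with BiP. It stood at 510, 561 and 451 TPM at 2 months, 410, 487 and 509 TPM at 12 months, and 518, 571 and 610 TPM at 24 months. The 24-month values of Pdia6 also lay above all 12-month values, with a log2 fold change of 0.28 ± 0.15 (SE; limma, adjusted p = 0.419).

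Pdia4 (chr6:47796141-47813430, minus strand) encodes ERp72, a larger member of the isomerase family. It stood at 289, 277 and 255 TPM at 2 months, 227, 225 and 252 TPM at 12 months, and 226, 251 and 340 TPM at 24 months. The 12-month values all lay below the 2-month values, by a narrow margin. The 24-month values were the most spread, and library 3 alone lay above every other value of the gene. The log2 fold change was -0.22 ± 0.16 for 12 against 2 months and -0.02 ± 0.16 for 24 against 2 months (SE; limma, adjusted p = 0.542 and 0.954).

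Xbp1 (chr11:5520659-5525893, plus strand) encodes a transcription factor of the unfolded protein response whose mRNA is spliced by the sensor Ire1, and a table by gene does not separate the spliced from the unspliced form. It stood at 304.9, 362 and 313 TPM at 2 months, 267, 230 and 307 TPM at 12 months, and 294, 287 and 304.5 TPM at 24 months. All 24-month values lay below all 2-month values, the closest pair by under 1 TPM. The log2 fold change for 24 against 2 months was -0.14 ± 0.14 (SE; limma, adjusted p = 0.671). For 12 against 2 months the ages overlapped and it was -0.29 ± 0.14 (SE; limma, unadjusted p = 0.0650, adjusted p = 0.350).

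Creb3l1 (chr2:91982328-92024502, minus strand) encodes OASIS, an ER-bound factor needed for normal collagen I production by mouse osteoblasts. It stood at 65.5, 53.5 and 68.7 TPM at 2 months, 43.4, 30.3 and 45.6 TPM at 12 months, and 61.0, 75.6 and 49.9 TPM at 24 months. All 12-month values lay below those of both other ages, which overlapped each other. The log2 fold change was -0.66 ± 0.21 for 12 against 2 months and 0.63 ± 0.21 for 24 against 12 months (SE; limma, unadjusted p = 0.00803 and 0.00980, adjusted p = 0.158 and 0.201). For 24 against 2 months it was -0.02 ± 0.21 (SE; limma, adjusted p = 0.969). Of 11 osteoblast markers tested, 11 had negative log2 fold changes for 12 against 2 months, with a median of -0.999. For 24 against 12 months 10 were positive, with a median of 0.41. Over all genes 42.8% and 57.4% were positive in these comparisons. The 6 hypertrophic chondrocyte markers, which share Ibsp and Alpl with the osteoblast list, were all negative for 12 against 2 months, with a median of -1.18. All 6 were positive for 24 against 12 months, with a median of 0.32. The 12 listed osteoblast markers summed to 14037 to 24999 TPM at 2 months, 10443 to 21586 at 12 months and 12082 to 30282 at 24 months, and these sums overlapped. The part of either list in the Creb3l1 values was not tested.

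Creb3l2 (chr6:37327255-37442146, minus strand) encodes BBF2H7, an ER-bound factor that drives secretory transport in mouse chondrocytes. It had the largest fold change of the set, and its values at both older ages lay below all values at 2 months, by narrow gaps. It stood at 33.7, 50.6 and 44.8 TPM at 2 months, 23.0, 22.8 and 31.5 TPM at 12 months, and 18.7, 19.7 and 33.1 TPM at 24 months. The highest 24-month value lay within 1 TPM of the lowest 2-month value. The log2 fold change was -0.85 ± 0.25 for 24 against 2 months, a fold between 0.382 and 0.804 by its 95% interval (SE; limma, unadjusted p = 0.00481, adjusted p = 0.183). For 12 against 2 months it was -0.71 ± 0.25 (SE; limma, unadjusted p = 0.0134, adjusted p = 0.189). The gene was called only when library 3 of 24 months was left out, at -1.10 for 24 against 2 months (limma, adjusted p = 0.0290). Creb3l2 was lower than Creb3l1 in all 9 libraries, at between 26.1 and 94.5% of its level.

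Chondrocyte markers had lower sums at the ages at which Creb3l2 was lower. The summed TPM of 16 such markers was 73746 to 83243 at 2 months, 39994 to 52852 at 12 months and 33723 to 58692 at 24 months, and library 3 was the highest of the 24-month libraries for both. All 16 markers had negative log2 fold changes for 24 against 2 months and for 12 against 2 months. Their part in the Creb3l2 values was not tested.

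**Figure D2:**
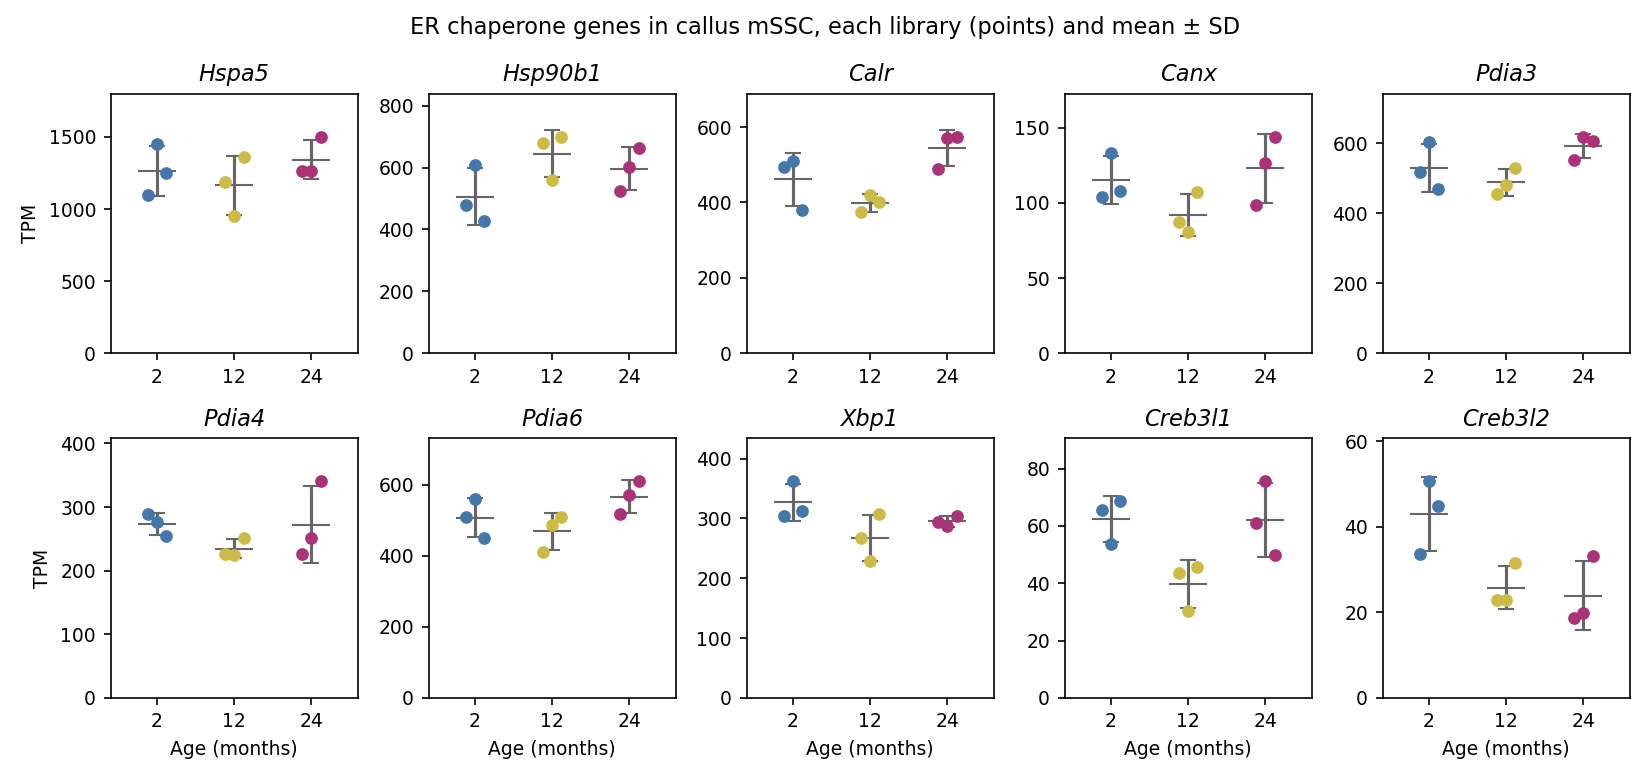
Level of each of the 10 genes in TPM (vertical axis, starting at 0) by age in months, with a point per library and lines for the mean ± SD of 3 libraries. Hspa5, Hsp90b1 and Canx overlap between all ages, Creb3l1 is lowest at 12 months, and Creb3l2 lies at 18.7 to 33.1 TPM at 24 months, below its 2-month values.

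Seen by comparison, the 10 genes for 24 against 2 months split into 6 positive and 4 negative log2 fold changes with a median of 0.09, against a median of -0.02 and 47.9% positive over all genes. Of these 10, the values of 2 did not overlap between the ages, both lower at 24 months (Xbp1 and Creb3l2), against 8.97% of all genes lower and 20.2% in either direction. Creb3l2 alone had an unadjusted p under 0.05, against 14.5% of all genes. Leaving out Creb3l2, the 95% intervals of the other 9 genes all lay between -0.47 and 0.61.

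For 12 against 2 months, 9 of the 10 log2 fold changes were negative, with a median of -0.21, against a median of -0.07 and 42.8% positive over all genes. Values did not overlap for 3 genes, all lower at 12 months (Pdia4, Creb3l1 and Creb3l2), against 15.4% of all genes lower and 25% in either direction. Unadjusted p was under 0.05 for 2 genes, Creb3l1 and Creb3l2, against 15.6% of all genes. For 24 against 12 months, 8 of the 10 were positive, with a median of 0.25, against a median of 0.07 and 57.4% positive over all genes. Values did not overlap for 4 genes, all higher at 24 months (Calr, Pdia3, Pdia6 and Creb3l1), against 11.1% of all genes higher and 17.2% in either direction. Unadjusted p was under 0.05 for Calr, Canx and Creb3l1, against 14.1% of all genes. These last 2 comparisons share the 12-month libraries, so their opposite signs are not independent.

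**Figure D3:**
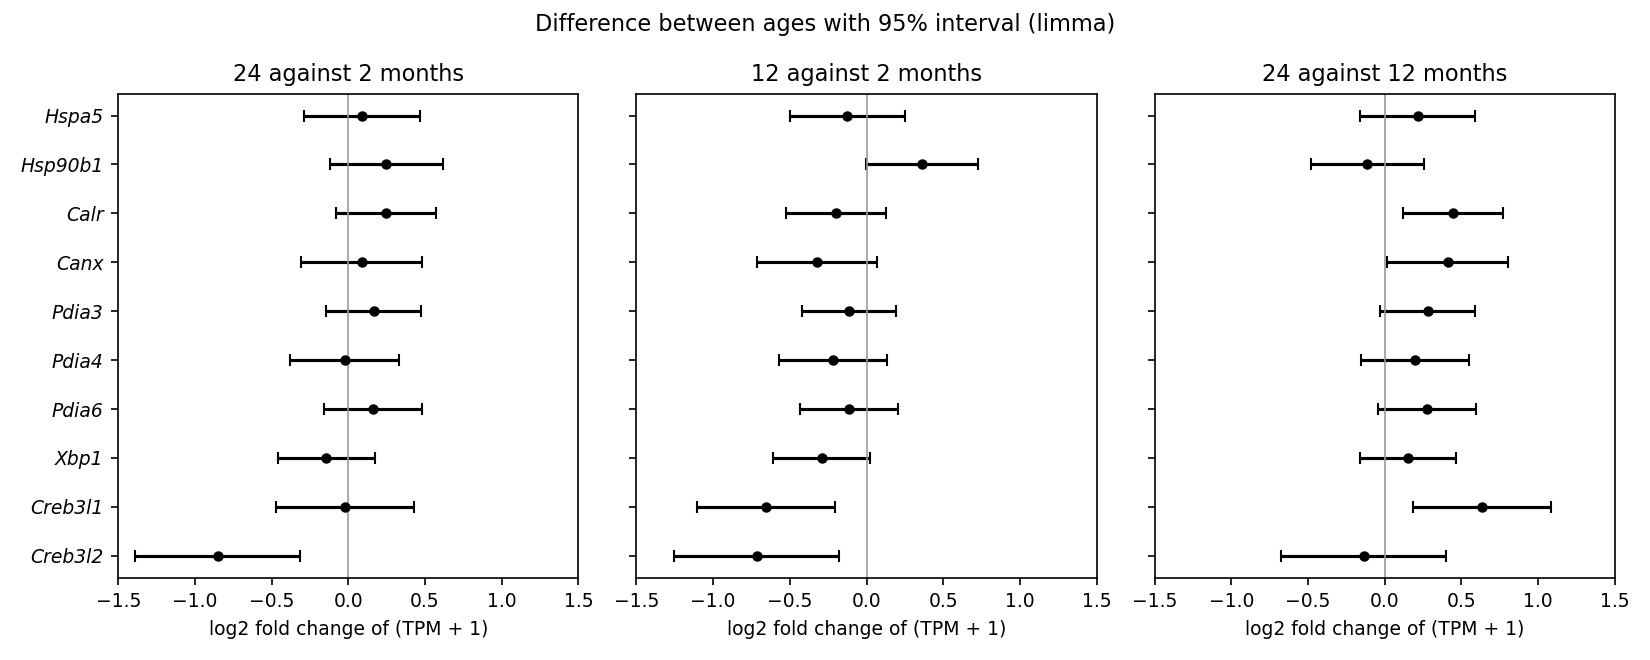
Log2 fold change of (TPM + 1) for each gene (horizontal axis, older over younger age) with its 95% interval from limma, for 24 against 2, 12 against 2 and 24 against 12 months. Intervals that exclude 0 are those of Creb3l2 for 24 against 2 months, Creb3l1 and Creb3l2 for 12 against 2 months, and Calr, Canx and Creb3l1 for 24 against 12 months, and no gene passed after adjustment.

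Single libraries held the highest or lowest value of their age for many of the 10 genes. The share over all genes was not computed, so whether these counts are particular to the set is not known. Library 3 of 24 months was the highest of its age for 8 of the 10 genes, library 3 of 12 months for 9 and library 2 of 2 months for 8. Library 1 of 24 months, which stood apart from the rest, was the lowest of its age for 7 genes. The genes of a library share that library, so these counts describe 9 libraries and not 10 separate observations.

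Over the 9 libraries, the log2(TPM + 1) values most like those of Hspa5 belonged to Tmed9, a cargo receptor of the early secretory pathway, with a Pearson correlation of 0.98. Tmed9 stood at 528, 795 and 657 TPM at 2 months, 607, 458 and 764 TPM at 12 months, and 662, 701 and 787 TPM at 24 months. As for Hspa5, the lowest of these values was library 2 of 12 months. Top2b, a DNA topoisomerase (0.94), Zfp354c, a zinc finger gene (0.93), Wbp1l (0.91) and Asph, an ER-resident hydroxylase (0.91), came next. Among 14500 other genes, Canx ranked 63rd in likeness to Hspa5 with a correlation of 0.84, and Xbp1 175th with 0.78. Pdia3 ranked 942nd, Pdia4 1539th and Pdia6 2009th. Creb3l2, Calr, Hsp90b1 and Creb3l1 ranked between 3418th and 3929th, with correlations between 0.37 and 0.41. These are descriptions over 9 points that share library and composition.

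The list of cochaperones and ER chaperone partners held the only chaperone-side gene that passed the test. Of 14 cochaperone and ER chaperone partner genes, Creld2 rose and none fell for 24 against 12 months, and none passed in the other comparisons. Creld2 encodes an ER stress-inducible protein with isomerase activity. It stood at 103, 94.7 and 94.3 TPM at 2 months, 87.8, 93.2 and 96.3 TPM at 12 months, and 174, 173 and 140 TPM at 24 months. All 24-month values lay above all others. Its log2 fold change was 0.80 ± 0.14 for 24 against 12 months (SE; limma, adjusted p = 0.0292) and 0.73 ± 0.14 for 24 against 2 months (SE; limma, adjusted p = 0.0938). The call for 24 against 12 months was kept in 10 of 21 alternatives, with an adjusted p up to 0.152 over these limma fits. Among its losses were the fit with no filter and those without any 1 library of 2 months. The same held without library 1 or 2 of 24 months, or library 1 or 3 of 12 months. The losses were thus not confined to fits without 1 library.

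Sdf2l1, a partner of BiP, stood at 35.3, 30.4 and 27.8 TPM at 2 months, 42.4, 37.8 and 38.0 TPM at 12 months, and 56.9, 71.2 and 49.2 TPM at 24 months. Its values did not overlap between any of the ages, and its log2 fold change for 24 against 2 months was 0.89 ± 0.18 (SE; limma, adjusted p = 0.102). Manf, an ER stress-inducible secreted protein that binds BiP, averaged 460.5 ± 52.7 TPM at 24 months and 312 ± 29.1 TPM at 2 months (SD, n = 3 each; limma, adjusted p = 0.152). The 14 genes summed to 1452 to 1583 TPM at 2 months, 1464 to 1553 at 12 months and 1778 to 1894 at 24 months, with the 24-month libraries above the rest. The median log2 fold change of the 14 was -0.04 for 24 against 2 months, opposite in sign to the sums, and 0.16 for 24 against 12 months. Markers of smooth muscle and pericytes also had their highest mean sum at 24 months. Their 12 genes summed to 65.7 to 179 TPM at 2 months, 54.1 to 434 at 12 months and 429 to 1041 at 24 months, and the 10 that passed the filter all had positive log2 fold changes for 24 against 2 months. Their part in these values was not tested.

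In the other disulfide isomerases and oxidases, 0 of 16 passed in any comparison. Ero1l, the oxidase that recharges disulfide isomerases, averaged 177 ± 44.3 TPM at 24 months and 380 ± 134 TPM at 12 months (SD, n = 3 each; limma, adjusted p = 0.110). These ages did not overlap, but the gap was narrow, with closest values of 223.6 TPM at 24 months and 225.1 TPM at 12 months. Txndc12, a thioredoxin-like ER protein, and Prdx4, an ER peroxiredoxin, had their highest values at 12 months (limma F test, adjusted p = 0.0987 and 0.145). Among 12 sensors and effectors of the unfolded protein response, Trib3 fell and none rose for 24 against 12 months, and none passed otherwise. Trib3, a pseudokinase of the amino acid and ER stress response, stood at 17.2, 22.9 and 16.1 TPM at 2 months, 79.4, 34.4 and 62.5 TPM at 12 months, and 19.1, 6.57 and 16.7 TPM at 24 months. Its log2 fold change was -2.02 ± 0.37 for 24 against 12 months (SE; limma, adjusted p = 0.0406), a call kept in 10 of 21 alternatives with an adjusted p up to 0.256. Among its losses were the fit with no filter and those without the same libraries as for Creld2. Asns, asparagine synthetase, had a log2 fold change of -1.46 and Atf6b, a relative of the sensor Atf6, of 0.92 in the same comparison, both uncalled (limma, adjusted p = 0.0560 and 0.0751).

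In the N-glycan folding cycle, 0 of 13 tested genes passed in any comparison. Of these 13, 12 were negative for 12 against 2 months, as were 8299 of all 14501 genes. Stt3a, Ganab and Uggt2, which attach, trim and check N-glycans, had the smallest F p-values (limma, adjusted p = 0.167, 0.246 and 0.269). In ER-associated degradation, 0 of 14 passed, and Vcp, Syvn1 and Os9 came first (limma F test, adjusted p = 0.117, 0.150 and 0.204). In translocation and signal peptidase genes, 0 of 16 passed, led by Sec61a1, Srpr and Sec11c (limma F test, adjusted p = 0.161, 0.229 and 0.305). In ER exit and KDEL retrieval, 0 of 20 passed and 18 were negative for 12 against 2 months, against the same 8299 of 14501 genes. Sec24c, Sec31a and Mia3, which build COPII coats or load collagen into them, led that list (limma F test, adjusted p = 0.0908, 0.142 and 0.158). Atf6b, Atf6 and Creb3l4 led the 5 relatives of the Creb3l genes, none of which passed (limma F test, adjusted p = 0.0944, 0.419 and 0.583). Among 17 collagen-specific folding enzymes 0 passed, with Crtap, P3h2 and P4ha3 first (limma F test, adjusted p = 0.205, 0.218 and 0.218). The 14 chaperones of the cytosol and mitochondria also held 0 calls, with Hspa9, Hspe1 and Dnaja1 first (limma F test, adjusted p = 0.208, 0.270 and 0.296).

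**Figure D4:**
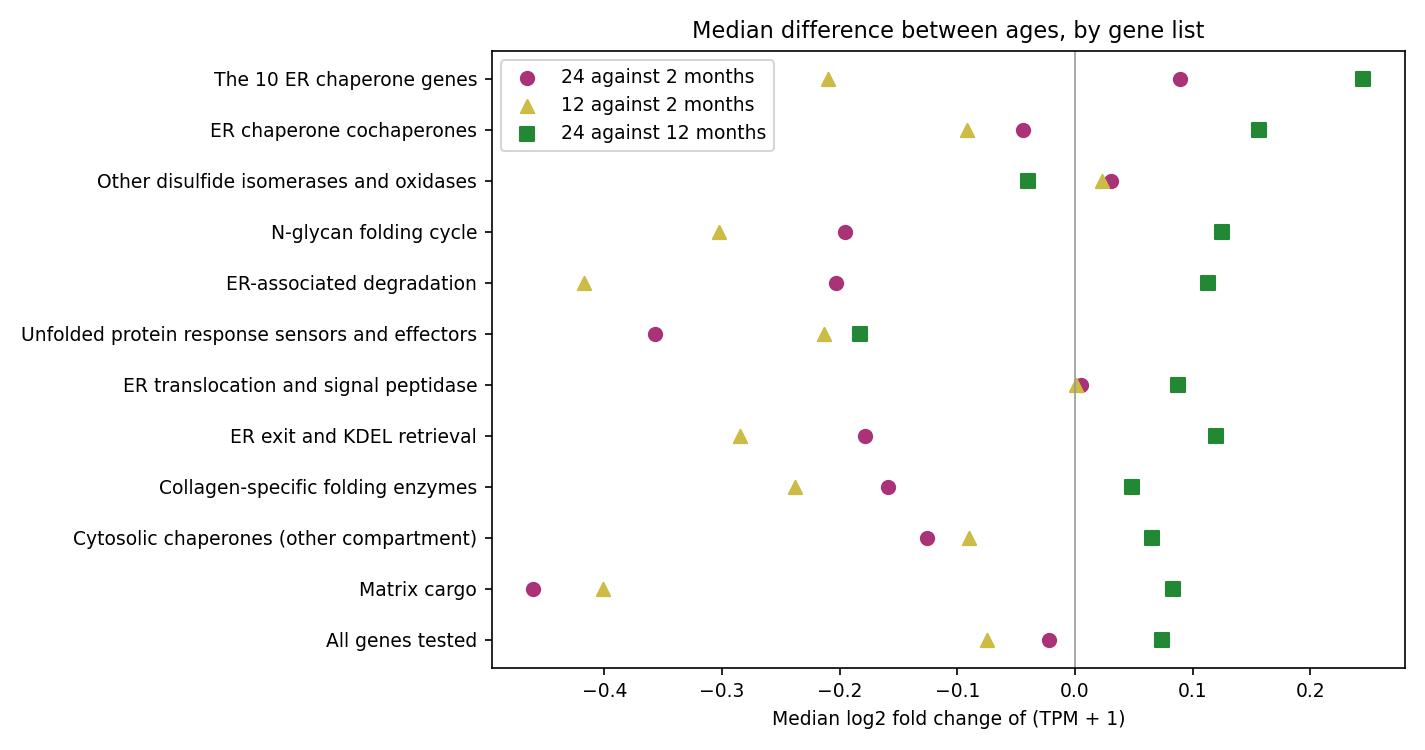
Median log2 fold change of (TPM + 1) on the horizontal axis for the 10 genes of the set (labelled ER chaperone genes, transcription factors included), the pathway lists and all genes tested, with a symbol per comparison of ages. The 10 genes have medians of 0.09, -0.21 and 0.25 for 24 against 2, 12 against 2 and 24 against 12 months, and the matrix cargo list lies farthest to the left for 24 against 2 months.

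The mRNAs of matrix proteins that this machinery folds had lower summed levels at the older ages, but not every gene was lower. The 30 matrix cargo genes summed to 117790 to 132310 TPM at 2 months, 76986 to 100553 at 12 months and 78251 to 101620 at 24 months. Col2a1 alone had a mean of 39494 TPM at 2 months and 18859 at 24 months. Of the 30 log2 fold changes, 19 were negative and 11 positive for 24 against 2 months. For 12 against 2 months 23 were negative and 7 positive. In the test, 1 of these 30 genes was called lower and none higher for 24 against 2 months. For 12 against 2 months 2 were called lower and none higher, and none passed for 24 against 12 months. Prelp, a leucine-rich repeat matrix protein, fell in both comparisons with 2 months, by 0.89 and 1.28 on the log2 scale (limma, adjusted p = 0.0355 and 0.00241). The first call was kept in 12 of 21 alternatives, with an adjusted p up to 0.190. It was lost with an offset of 0.1, no filter or no intensity trend, and without libraries 1 or 2 of 24 months, library 3 of 12 months or any library of 2 months. The second was kept in all 21. Chad, chondroadherin of cartilage, fell by 1.58 for 12 against 2 months (limma, adjusted p = 0.0170), a call kept in 15 of 21 alternatives (adjusted p up to 0.159 over these limma fits). It was lost with no filter, with no intensity trend, and without library 3 of 12 months or any library of 2 months. Col11a2, a cartilage collagen chain, had a log2 fold change of -0.83 for 24 against 2 months (limma, adjusted p = 0.140).

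The summed level of the 10 genes, including the transcription factors Xbp1, Creb3l1 and Creb3l2, was set against this cargo. It was 31.2, 39.1 and 28.5 TPM per 1000 TPM of cargo at 2 months, 41.0, 45.3 and 42.2 at 12 months, and 50.02, 56.0 and 47.5 at 24 months. The ages did not overlap in this ratio, which was described and not tested. With Col2a1 left out of the cargo it was 41.5 to 57.3 at 2 months, 55.3 to 59.2 at 12 months and 61.6 to 68.1 at 24 months, so that 2 and 12 months overlapped. Ratios of other chaperones to the same cargo were also lowest at 2 months. Cytosolic chaperones stood at 27.7 to 30.3, 36.8 to 41.0 and 32.7 to 47.9 TPM per 1000 TPM at 2, 12 and 24 months. Collagen folding enzymes stood at 71.2 to 91.8, 99.7 to 120 and 108 to 116. The denominator was lower at both older ages, while the summed level of the 10 genes overlapped among the ages.

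**Figure D5:**
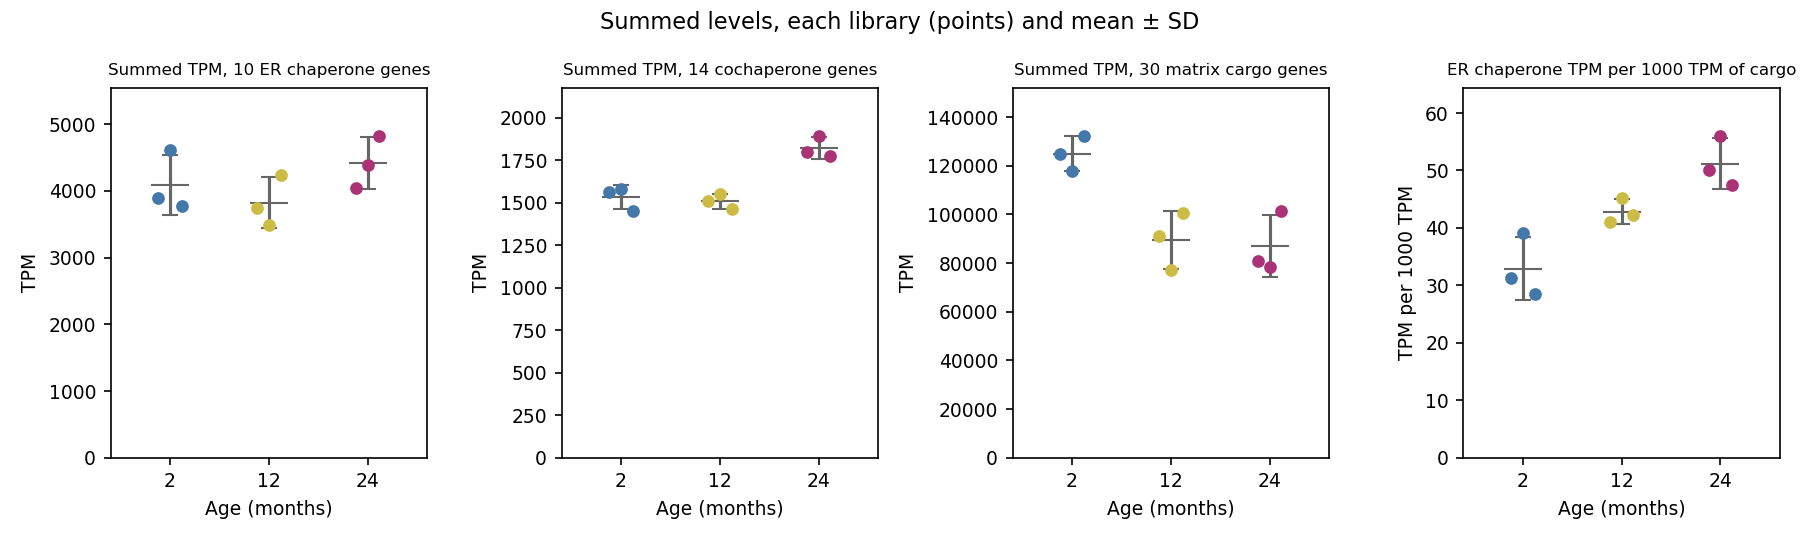
Summed TPM of the 10 genes of the set (titled ER chaperone genes, transcription factors included), of 14 cochaperone genes and of 30 matrix cargo genes, and TPM of the set per 1000 TPM of cargo (vertical axes, starting at 0), by age in months, with a point per library and lines for the mean ± SD of 3 libraries. The sums of the 10 genes overlap, the cargo sums are highest at 2 months, and the ratio lies at 47.5 to 56.0 at 24 months, above both younger ages.

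Genes with the full ERSE were also followed as a group. A window with the element was found for 37 genes, of which 21 passed the filter. The 5 members with the element had positive log2 fold changes for 24 against 2 months in all 5, between 0.09 and 0.25, none called. Over all genes 47.9% were positive, with a median of -0.02. Of the 5, Hspa5 and Canx turned sign in 1 of 21 alternatives each. Pdia3, a member whose window held no exact copy, was also positive at 0.17. The 16 other genes with the element had 7 positive and 9 negative values and a median of -0.10. Their mean levels ran between 0.516 TPM (1700122E12Rik) and 117 TPM (Creld2), against 110 to 1258 TPM for the 5 members. Several, such as Gm6566 and Zfp57, lay near the filter, so the groups are unlike in level. For 12 against 2 months 4 of the 5 and 12 of the 16 were negative, with medians of -0.124 and -0.205. For 24 against 12 months the median was 0.28 for the 5 and 0.12 for the 16, against 0.07 for all genes, and Creld2 was the only gene called among the 21.

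Markers of plasma cells, another cell type rich in this machinery, were checked. Mzb1, Cd79b, Igkc and Tnfrsf17 were at 0 in all 9 libraries, and Jchain reached at most 0.206 TPM. Ighm reached 7.53 TPM, Prdm1 4.29 TPM and Pou2af1 1.31 TPM. The 11 markers of this list summed to 59.7 to 83.2 TPM at 2 months, 51.5 to 75.4 at 12 months and 91.4 to 117 at 24 months, nearly all of it Sdc1, which was between 45.7 and 112 TPM and is also expressed by skeletal cells. Genes that overlap members of the set in the GENCODE annotation were low. The highest were Atp6v1c2 beside Pdia6 at up to 8.17 TPM and Gm15344 beside Hsp90b1 at up to 7.36 TPM, and the pseudogene Calr-ps reached 0.174 TPM. The strand of the libraries is not given by the labels, so reads shared with those genes cannot be told apart.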

How the data were processed

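Sorted mSSC from fracture callus were measured by RNA-seq in 9 libraries, 3 for each of 3 ages. The deposited values are log2 of a relative abundance; Salmon and build GRCm38.p6 are named for the authors' pipeline per the submitters' processing notes, with no version, annotation or strand given in the sources. Without the log and an offset of 1, each column sums to 1000000, so values were read as log2(TPM + 1). The columns name ages and no replicates, so libraries are numbered 1 to 3 within an age by file order. The members, gene lists and tests were chosen with earlier results of these data known. The filter kept the 14501 genes that reached 1 TPM in 3 or more of 9 libraries. One model with 3 ages was fitted with limma 3.58.1 in R 4.3.3 (intensity trend in eBayes, 6 degrees of freedom left, two-sided tests, Benjamini-Hochberg adjustment over all kept genes), and was tested on simulated data. Fold changes on the log2(TPM + 1) scale understate those of low genes. All 10 members, up to 3 genes of smallest F p per pathway list, and the 5 genes of at least 10 mean TPM most correlated with Hspa5 were named. Gene models without a gene-like name, pseudogenes, ribosomal and mitochondrial genes were left out of that last choice. Of the rows, 26 carried dates in place of symbols and were not named. Coordinates came from GENCODE M21 on GRCm38, and promoter sequences from RefSeq on GRCm38.p6. Alternatives changed the offset, filter, scaling, variance model, weights, libraries fitted and threshold.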

Additional observations from a re-analysis of the deposited data

How the results depend on the processing

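The count of called members was 0 in each comparison and in the F test, and stayed 0 under every offset, filter, scaling, variance model, weighting and threshold tried and when only 2 ages were fitted. Leaving out each library in turn gave 0 to 1 for 24 against 2 months and 0 to 1 for the F test, the 1 being Creb3l2 without library 3 of 24 months (limma, adjusted p = 0.0290 and 0.0364). Over all genes the counts of calls, with the filter and all libraries, were 23, 105 and 66 for 24 against 2, 12 against 2 and 24 against 12 months. Without library 1 of 24 months, which stood apart, they became 1, 244 and 12. They became 438, 219 and 346 without library 3 of 24 months, 295, 370 and 336 with array quality weights, 3, 15 and 4 with no intensity trend, and 0, 8 and 0 when every gene above 0 was tested. The last of these tests more genes. The other members stayed uncalled in every alternative. The sign of Creb3l1 for 24 against 2 months turned in 4 of 21 alternatives, that of Pdia4 in 3, and of Hspa5 and Canx in 1 each. For 24 against 12 months, Creb3l2 turned in 2, and for 12 against 2 months, Hspa5 in 1. Counts of called pathway genes without 1 library ranged between 0 and 16 for 24 against 2 months, 1 and 5 for 12 against 2 months, and 0 and 10 for 24 against 12 months, and the highest of each came without library 3 of 24 months. Rescaling that left out mitochondrial genes and the 50 most abundant ones moved the mean summed member level at 2, 12 and 24 months to 5650, 5189 and 5840 TPM. The cause was not tested for any of these. No paired analysis was possible because the columns carry no replicate number. Precision is limited by 3 libraries per age.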
